A study of Mus musculus with 6 samples.

Results

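Cytochrome P450 genes were taken as the rows of the count table whose symbol is Cyp followed by a family number, a subfamily letter and a gene number. There were 69 such genes among 26971 rows, and 38 of them reached 10 or more counts in at least 3 libraries and were tested. The tissue was kidney cortex of male C57BL/6 mice, taken 1 day after surgery. The 3 libraries labelled IRI and numbered 1 to 3 came from kidneys with IRI, the usual abbreviation of ischaemia-reperfusion injury. The 3 libraries labelled IRI with IVCC, also numbered 1 to 3, came from kidneys with IRI and renal congestion. Every library thus came from an injured kidney, and no uninjured kidney was analysed here. The labels expand neither IVCC nor CLK, the prefix of the IRI columns, and give no age. The labels also do not say that the libraries came from separate animals, so p-values reflect the spread among these libraries alone.

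P450 enzymes are haem proteins that insert 1 atom of oxygen into a substrate, using electrons passed on by a reductase or, in mitochondria, by ferredoxin. Families 2 and 4 act on arachidonic acid, other fatty acids, steroids and foreign chemicals, and are abundant in the proximal tubule of the mouse kidney. The proximal tubule also carries the mitochondrial enzymes that make and destroy the active form of vitamin D, encoded by Cyp27b1 and Cyp24a1. Other members hydroxylate oxysterols (Cyp7b1, Cyp39a1, Cyp27a1) or break down retinoic acid (the Cyp26 genes).

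The libraries held 10865860 to 14350425 counts, of which P450 genes took 0.791% to 1.07%. Of the 31 genes not tested, none exceeded 25 counts in a library, and all 31 together held 0.052% of the P450 counts. Markers of the proximal tubule were abundant, with Kap at 17201 to 50659 CPM and Slc34a1 at 466 to 2384 CPM. Of the adrenal cortex, a gland rich in P450 enzymes, 8 markers had a row and summed to 95.7 to 132.7 CPM. Most of this sum was Fdx1, at 69.1 to 110.1 CPM, and Scarb1, at 17.3 to 27.9 CPM. Star lay at 1.35 to 2.56 CPM, and Hsd3b1 and Cyp21a1 had at most 1 and 4 counts. Cyp17a1 had at most 5 counts. The 11 hepatocyte markers summed to 720.1 to 1535 CPM: Alb lay at 3.80 to 25.3 CPM and Ahsg had at most 1 count, whereas Fga lay at 116 to 695 CPM and Apob at 117 to 604 CPM. Their part in the P450 values was not tested. CPM is the count of a gene relative to the library total over tested genes, scaled by the TMM method. In bulk RNA, fewer cells of a type and less RNA per cell cannot be told apart.

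Ranked by length-scaled level, in TPM (counts per base of the longest annotated transcript, as a share of all such values in the library), 5 genes stood highest. They were Cyp4b1, a fatty acid hydroxylase, at a mean of 1913 TPM (range over the 6 libraries 1202 to 2469), Cyp2j5, an arachidonic acid epoxygenase, at 1584 (889 to 2264), and Cyp4a10, a fatty acid omega-hydroxylase, at 1366 (919 to 1730.4). Cyp2a5, which oxidises coumarin and nicotine, followed at 1172 TPM (684 to 1894), and Cyp2e1, which oxidises ethanol and other small molecules, at 960.3 (382 to 1448). These ranges overlap, so the order among the 5 is not fixed beyond the spread of the libraries. By reads rather than TPM, the top 5 were Cyp4b1, Cyp2j5, Cyp4a10, Cyp2a5 and Cyp4a14, with 68.1% of all P450 counts. Next came Cyp4a14 at a mean of 729.9 TPM, Cyp4a31 at 625 and Cyp2a4 at 554. A step lower lay Cyp2d9 at 196 TPM, Cyp2j11 at 150.0, Cyp2j13 at 106, Cyp7b1 at 104 and Cyp24a1 at 81.8. Cyp4f14 was the lowest tested gene, at a mean of 0.733 TPM, and Cyp1a1 was next at 0.996.

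**Figure D1:**
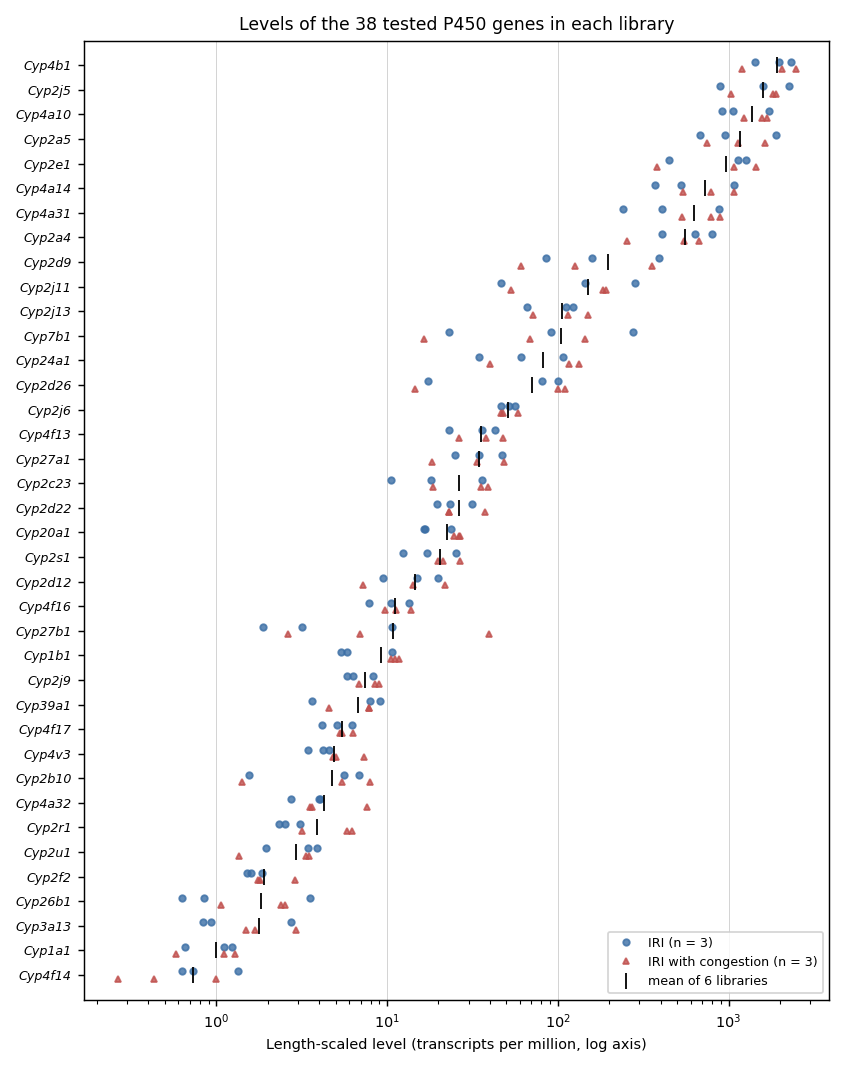
Length-scaled level of each of the 38 tested P450 genes (TPM, log axis), with circles for the 3 IRI libraries, triangles for the 3 congested libraries and a bar for the mean of all 6. Cyp4b1, at a mean of 1913, tops the list, and the symbols of the groups overlap for every gene but Cyp20a1, Cyp2r1 and Cyp4v3, which lie higher in the congested libraries on this scale.

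Many of these genes lie side by side in the genome (GRCm38, GENCODE annotation). On chromosome 4, Cyp4a14, Cyp4a10, Cyp4a31, Cyp4a32 and Cyp4b1 stand between 115486200 and 115647723, and the tested Cyp2j genes between 96027534 and 96664154. On chromosome 15 the tested Cyp2d genes lie between 82370527 and 82794294. Neighbours have similar sequences, and reads from the shared parts may be assigned to either. Of the 50-base stretches of its longest transcript, Cyp2a4 shared 38% with other genes, Cyp2a5 40.8%, Cyp4a32 46.8%, Cyp4a10 30.5% and Cyp2d9 29.0%. The counts of these genes are uncertain to that extent, since the rule for reads that fit several genes is not given in the sources used here.

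Congestion was not accompanied by a called change in any P450 gene. Of the 38 tested genes, 0 were higher and 0 lower in congested than in IRI kidney at an adjusted p under 0.05 in edgeR's quasi-likelihood test, against 0.00% of all 14398 tested genes in each direction. The count was also 0 at an unadjusted p under 0.05, where 2% of all genes passed. DESeq2 and limma-voom called 0 members too (0.00% of all genes each), with 0 at an unadjusted p under 0.05, against 2.47% and 2.01% of all genes. The smallest unadjusted p among members was 0.0838 and the smallest adjusted p 0.935. Of the 38 log2 fold changes 16 lay above 0 (42.1%, against 49.7% of all genes), with a median of -0.06 against -0.00 over all genes. With total counts in place of TMM, 21 lay above 0 and the median was 0.04. After removing the dependence on transcript length and GC, 20 lay above 0 and the median was 0.01. In TMM-scaled CPM, 0 of the 38 tested genes had their 3 congested libraries all above or all below the 3 IRI libraries, which held for 3.38% and 3.10% of all genes. In TPM, which carries no TMM factor, the congested libraries were all above for 3 of the 38 (Cyp20a1, Cyp2r1 and Cyp4v3, 7.89%, against 5.78% of all genes) and all below for 0 (against 0.937%). Of the genes not tested, Cyp4f18 was apart upwards and Cyp26a1 downwards in CPM, the latter with 3, 4 and 3 counts in IRI and 1, 2 and 1 in congested libraries. Cyp4f18 had 4 to 20 counts per library. The share of all untested rows that lay apart was not computed, so no result is drawn from either gene. Counts were also simulated with the spread of each gene around 1 mean, without an effect of the replicate number. The test called 7.22% of the randomly chosen genes given a 2-fold change and 67.3% of those given 4-fold. A 2-fold change of a P450 gene may thus well have gone uncalled, though recovery was not measured for P450 genes themselves.

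**Figure D2:**
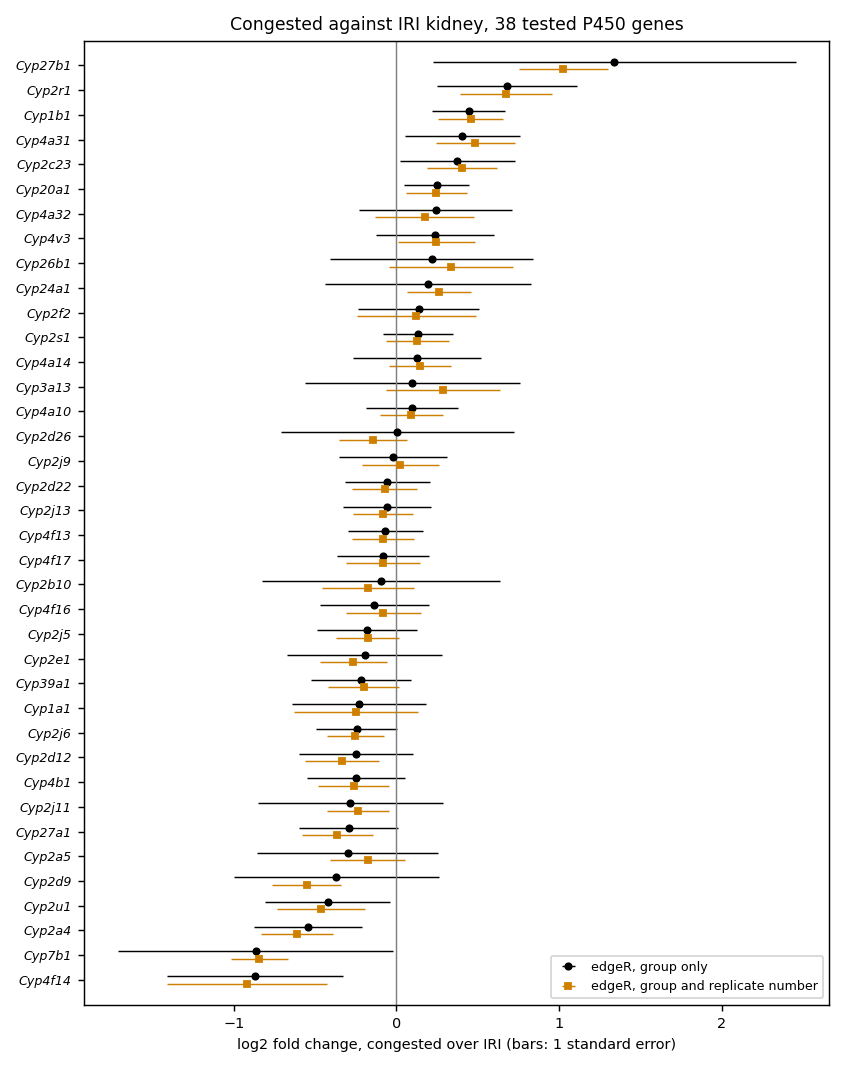
Log2 fold change of congested over IRI kidney for each tested P450 gene, with bars of 1 standard error, from edgeR with the group alone (circles) and with a block for the replicate number (squares). Values run from -0.87 for Cyp4f14 to 1.34 for Cyp27b1 with the group alone, and the bars of the blocked fit are shorter for all 38 genes.

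The labels number the libraries 1 to 3 in both groups, and libraries with the same number resembled each other in their deviations from the group means. IRI library 2, however, correlated more with congested library 3 than with congested library 2 (0.395 against 0.342). The errors narrowed when the number entered the model as a block. With the replicate block edgeR again called 0 members, with a smallest adjusted p of 0.578, and 0.00% of all genes. At an unadjusted p under 0.05, 2 members were higher (5.26%, against 4.06% of all genes) and 3 were lower (7.89%, against 2.99%). DESeq2 with the same block called 0 members and 0.0556% of all genes. Within equal numbers, 6 members were higher in the congested library of all 3 numbers (15.8%, against 13.1% of all genes) and 11 were lower in all 3 (28.9%, against 13.1%). This split rests on the scaling: with total counts 9 members were higher and 6 lower in all 3 numbers, against 19.9% and 7.99% of all genes. The paragraphs that follow take the families in turn.

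Vitamin D enzymes. Cyp27b1 makes the active hormone, and Cyp24a1 inactivates it. Cyp27b1 lay at 15.3, 3.76 and 1.77 CPM in IRI libraries 1, 2 and 3, and at 44.1, 6.45 and 2.51 CPM in congested libraries 1, 2 and 3. The congested library was the higher in each number, but the groups overlapped because library 1 of both groups was several times above the others. The group means were 6.93 ± 7.28 and 17.7 ± 22.9 CPM (SD, n = 3), giving 1.34 on the log2 scale ± 1.11 (SE; edgeR adjusted p = 0.935). With the replicate block it was 1.03 ± 0.27 (SE), at an unadjusted p of 0.00510 and an edgeR adjusted p of 0.578. Without congested library 1, which held the most Cyp27b1, the log2 fold change without the block was -0.64, and without IRI library 1 it was 2.67.

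Cyp24a1 lay at 223, 105 and 47.3 CPM in IRI and at 216, 157 and 56.3 CPM in congested libraries 1, 2 and 3. Its levels thus followed the number more than the group, and the groups overlapped. The log2 fold change was 0.19 ± 0.63 (SE; edgeR adjusted p = 0.967), or 0.26 ± 0.20 (SE) in the blocked fit. Per length, the ratio of Cyp27b1 to Cyp24a1 was 0.0999, 0.0522 and 0.0545 in IRI libraries 1, 2 and 3, and 0.297, 0.0599 and 0.0650 in the congested libraries. Congested library 1 stood apart in this ratio. Cyp2r1, which performs the first hydroxylation of vitamin D, lay at 3.42, 2.30 and 1.68 CPM in IRI and 5.38, 4.17 and 2.35 CPM in congested libraries 1, 2 and 3. It was higher in the congested library of every number, with a blocked log2 fold change of 0.67 ± 0.28 (SE, unadjusted p = 0.0429, edgeR adjusted p = 0.578). Its counts were low, between 19 and 60 per library. Cyp27a1, a sterol hydroxylase of mitochondria, lay at 27.7, 31.6 and 34.1 CPM in IRI and at 15.9, 24.1 and 36.1 CPM in congested libraries 1, 2 and 3. Cyp3a11, a drug-metabolising enzyme that also hydroxylates vitamin D, was not tested, with 15, 0 and 0 counts in IRI and 6, 1 and 0 in congested libraries.

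The sequence before the start of Cyp27b1 (chromosome 10, 127047996 to 127048245, plus strand, RefSeq, GRCm38.p6) is shown because this gene had the widest range between replicate numbers of the 38. Capitals mark the match to CCAAT, or ATTGG on the other strand, a promoter box that is present in 33.8% of all 32851 RefSeq promoter windows of the same length. Such a match is a description and not a measured site.
Cyp27b1: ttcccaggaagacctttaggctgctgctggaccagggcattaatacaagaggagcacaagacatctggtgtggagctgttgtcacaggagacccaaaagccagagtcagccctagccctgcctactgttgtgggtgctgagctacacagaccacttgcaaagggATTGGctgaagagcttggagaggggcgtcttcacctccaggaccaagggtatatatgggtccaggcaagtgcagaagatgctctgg

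Of 14 further genes that carry, sense or respond to vitamin D, all were tested, 0 were called, and 10 had log2 fold changes above 0, with a median of 0.07. With length and GC removed 6 of the 14 lay above 0 (median -0.05), and without congested library 3 also 6 (median -0.11). Trpv5, a calcium channel of the distal tubule, lay at 13.4, 18.9 and 16.4 CPM in IRI and at 26.1, 43.1 and 22.0 CPM in congested libraries, which did not overlap. Such separation upwards held for 3.38% of all genes, and Trpv5 was named for the smallest p of its list. Its log2 fold change was 0.91 ± 0.30 (SE; unadjusted p = 0.0177, edgeR adjusted p = 0.935). S100g, which encodes a calcium-binding protein, had a log2 fold change of -0.88 ± 0.54 (SE). Vdr, the vitamin D receptor, lay at 178 to 248 CPM over all 6 libraries.

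Oxysterol hydroxylases. Cyp7b1 lay at 29.4, 96.6 and 231 CPM in IRI libraries 1, 2 and 3, and at 16.2, 57.1 and 123 CPM in the congested libraries. The congested library was the lower in each number by a similar amount, -0.85, -0.76 and -0.91 on the log2 scale. The groups overlapped, because the numbers differed by more than the groups did. Without the block the log2 fold change was -0.86 ± 0.85 (SE; edgeR adjusted p = 0.935). With it the value was -0.84 ± 0.18 (SE), an unadjusted p of 0.00133 and an edgeR adjusted p of 0.578. DESeq2 with the block gave an adjusted p of 0.130. Without IRI library 3 the unblocked log2 fold change was 0.05, and without congested library 3 it was -1.70. Cyp7b1 is among the genes of the S3 segment of the proximal tubule, and a list of 9 other S3 genes had 7 log2 fold changes below 0 and 2 above (0 called, median -0.40). Without IRI library 3, 7 of the 9 lay above 0 with a median of 0.15, and without congested library 1 the median was -0.04. Their summed level was 1151, 2034 and 3648 CPM in IRI and 1397, 2128 and 2532 CPM in congested libraries 1, 2 and 3. The part of this list in the Cyp7b1 values was not tested. Cyp39a1, another oxysterol hydroxylase, had a log2 fold change of -0.22 ± 0.31 (SE), at 9.63 ± 2.76 CPM in IRI and 8.26 ± 1.64 CPM in congested kidney (SD, n = 3).

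Family 2. Of 34 members 18 were tested, 0 were called, 13 had log2 fold changes below 0 and 5 above, with a median of -0.14. With total counts the split was 10 below and 8 above. Within equal numbers 7 of the 18 were lower in the congested library of all 3 numbers, and 2 were higher, against 13.1% of all genes each way. With total counts 4 were lower and 2 higher, against 7.99% and 19.9% of all genes. Summed over the family, the level was 4922, 4931 and 5086 CPM in IRI and 3589, 4365 and 4686 CPM in congested libraries 1, 2 and 3. The 3 congested libraries were all below the 3 IRI libraries in this sum, most of all congested library 1. Per total counts they overlapped, at 4316, 4823 and 5300 CPM in IRI and 3516, 4636 and 4985 CPM in congested libraries. As the members were chosen with earlier results known, the sum is given without a test.

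The arachidonic acid epoxygenases turn that fatty acid into signalling epoxides. Cyp2j5 lay at 1222, 1819 and 2042 CPM in IRI and at 1112, 1698 and 1668 CPM in congested libraries 1, 2 and 3, a log2 fold change of -0.18 ± 0.31 (SE). Cyp2j6 lay at 109.6, 81.3 and 78.1 CPM in IRI and 95.7, 63.6 and 67.7 CPM in congested libraries. Both were lower in the congested library of every number, by less than the spread between libraries of a group. Cyp2c23, another epoxygenase, was the higher in the congested library of every number, at 11.8, 16.8 and 26.5 CPM in IRI and 16.2, 28.5 and 26.8 CPM in congested kidney. Its blocked log2 fold change was 0.40 ± 0.21 (SE; edgeR adjusted p = 0.578).

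Cyp2e1 lay at 481, 1124 and 806 CPM in IRI and at 319, 1011 and 776 CPM in congested libraries 1, 2 and 3. Library 1 was the lowest of each group, and the groups overlapped. Its log2 fold change was -0.19 ± 0.48 (SE; edgeR adjusted p = 0.956), and it was 0.15 without congested library 1. Cyp2d9, a testosterone hydroxylase, lay at 86.1, 133 and 257 CPM in IRI and at 47.4, 82.1 and 239 CPM in congested libraries. In the blocked fit the value was -0.55 ± 0.21 (SE; unadjusted p = 0.0309, edgeR adjusted p = 0.578). Cyp2d26 was close to equal between the groups in means, at 49.7 ± 28.1 CPM in IRI and 49.9 ± 33.7 CPM in congested kidney (SD, n = 3). Its library 1 held 17.2 and 11.2 CPM in the 2 groups, and the other 4 libraries 65.3 to 73.1 CPM. Cyp2u1, a fatty acid hydroxylase, had a log2 fold change of -0.42 ± 0.38 (SE).

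Cyp2a4 and Cyp2a5 are near-copies, yet their levels followed different orders over the libraries. Cyp2a4, a steroid hydroxylase, lay at 416, 539 and 536 CPM in IRI libraries 1, 2 and 3 and at 202, 363 and 458 CPM in the congested libraries. Library 1 was the lowest of each group. Its log2 fold change was -0.54 ± 0.33 (SE), and -0.61 ± 0.22 (SE) in the blocked fit (unadjusted p = 0.0237, edgeR adjusted p = 0.578). Cyp2a5 lay at 2235, 669 and 737 CPM in IRI and at 1491, 570.4 and 897 CPM in the congested libraries. Here library 1 was the highest of each group. Per length, the ratio of Cyp2a5 to Cyp2a4 was 4.64, 1.07 and 1.19 in IRI and 6.37, 1.36 and 1.69 in congested libraries 1, 2 and 3. The ratio was the higher in the congested library of every number. Cyp2a4 was named for the smallest p downwards, which favours this direction, and no share over other gene pairs was computed. Because reads of the shared stretches may be split between the pair, the size of these ratios is uncertain.

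The sequences before the starts of the pair, from RefSeq (GRCm38.p6, chromosome 7, plus strand, 26306943 to 26307158 for Cyp2a4 and 26835089 to 26835304 for Cyp2a5), are shown because genes with different levels carry almost the same upstream bases. Over 216 aligned bases they differed at 4, an identity of 98.1%. Capitals mark the differing bases.
Cyp2a4: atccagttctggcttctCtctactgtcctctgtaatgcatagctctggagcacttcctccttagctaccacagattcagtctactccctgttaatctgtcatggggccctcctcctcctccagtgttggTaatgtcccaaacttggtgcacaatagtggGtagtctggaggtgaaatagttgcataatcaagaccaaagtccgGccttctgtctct
Cyp2a5: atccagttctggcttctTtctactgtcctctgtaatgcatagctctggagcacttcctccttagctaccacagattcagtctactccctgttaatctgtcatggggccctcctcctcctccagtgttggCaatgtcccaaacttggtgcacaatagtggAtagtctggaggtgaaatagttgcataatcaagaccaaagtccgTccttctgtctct

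Family 4. Of 15 members 10 were tested, 0 were called, and 5 log2 fold changes lay above and 5 below 0, with a median of 0.01. With total counts 7 lay above 0. The fatty acid omega-hydroxylases Cyp4a10 and Cyp4a14, known targets of the nuclear receptor PPAR alpha, were close in the 2 groups. Cyp4a10 lay at 1308, 942 and 1403 CPM in IRI and at 1516, 996 and 1386 CPM in congested libraries 1, 2 and 3. Cyp4a14 lay at 772, 451 and 1034 CPM in IRI and at 895, 515 and 1052 CPM in congested libraries. Library 2 of each group was the lowest for both genes, but congested libraries 1 and 3 stood in opposite order. Not all neighbours shared the low library 2: Cyp4a31 was lowest in library 1 of each group, and Cyp4b1 was highest in library 2. The log2 fold changes of Cyp4a10 and Cyp4a14 were 0.09 ± 0.28 (SE) and 0.13 ± 0.39 (SE).

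Cyp4a31 lay at 356, 496 and 847 CPM in IRI and at 611, 857 and 781 CPM in the congested libraries. It was higher in congested libraries 1 and 2 than in their IRI counterparts and slightly lower in library 3. Its log2 fold change was 0.41 ± 0.35 (SE), and 0.49 ± 0.24 (SE) in the blocked fit (unadjusted p = 0.0784, edgeR adjusted p = 0.578). Cyp4b1 lay at 1588, 2144 and 1439 CPM in IRI and at 1036, 1780.0 and 1535 CPM in congested libraries, a log2 fold change of -0.25 ± 0.30 (SE). Cyp4f14 had the lowest log2 fold change of all members, -0.87 ± 0.54 (SE), on 3 to 13 counts per library. Neutrophils are known to express the leukotriene hydroxylase gene Cyp4f18, which was not tested, with 5, 4 and 4 counts in IRI and 20, 7 and 6 in congested libraries 1, 2 and 3. Neutrophil markers summed to 74.1, 8.62 and 4.95 CPM in IRI and 222, 16.1 and 7.77 CPM in congested libraries. Cyp4f18 and the markers were thus both highest in congested library 1. In IRI the markers were also far higher in library 1, whereas Cyp4f18 was near equal across the libraries. Of the 6 markers 5 were tested, and all 5 had log2 fold changes above 0 (0 called). Without congested library 1 only 2 were tested, and both lay below 0. Their part in the Cyp4f18 counts was not tested. Cyp4f15 held 25 counts in congested library 2 and at most 8 in any other. That library also held 344 counts of Cfd and 111 of Adipoq, genes of fat cells, against at most 33 and 12 elsewhere. Of the other 4 markers of fat cells, Fabp4 was highest in IRI library 1 at 102 CPM, and Lep had at most 1 count. Cidec lay at 6.23 CPM in congested library 2 and 6.20 CPM in IRI library 1. Plin1 was highest in congested library 2, at 3.74 CPM. The part of these markers in the Cyp4f15 counts was not tested.

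Other families. Of 16 members 6 were tested, 0 were called, and 4 log2 fold changes lay above 0. Cyp1b1, which oxidises oestrogens and is induced through the aryl hydrocarbon receptor, had the smallest unadjusted p of the 38. It lay at 16.2, 14.4 and 21 CPM in IRI and at 26.0, 20.6 and 23.8 CPM in congested libraries 1, 2 and 3. The congested library was the higher in every number, and the groups overlapped in 1 library each. The log2 fold change was 0.45 ± 0.22 (SE; unadjusted p = 0.0838, edgeR adjusted p = 0.935), a 1.36-fold difference. Cyp20a1, an enzyme with no established substrate, lay at 19.9 ± 1.92 CPM in IRI and 23.7 ± 3.08 CPM in congested kidney (SD, n = 3), with a log2 fold change of 0.25. Cyp26b1, which degrades retinoic acid, lay between 1.37 and 6.09 CPM, and Cyp3a13, a xenobiotic enzyme, between 1.06 and 4.77 CPM.

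More members were called between the replicate numbers than between the groups. In edgeR, with the group kept in the model, 9 of 38 members (23.7%) differed between the numbers at an adjusted p under 0.05, against 7.94% of all genes. They were Cyp7b1 (adjusted p = 0.00204), Cyp27b1 (0.00262), Cyp2d26 (0.00613), Cyp24a1 (0.00827), Cyp2d9 (0.0103), Cyp2j11 (0.0106), Cyp2b10 (0.0172), Cyp2a5 (0.0256) and Cyp2e1 (0.0309), all by edgeR. Averaged over the groups, the highest and lowest number differed by 3.52 on the log2 scale for Cyp27b1, 2.94 for Cyp7b1, 2.30 for Cyp2d26 and 2.08 for Cyp24a1. The median of this difference was 0.80 over the 38 members and 0.54 over all genes. Of the 9, number 1 was the highest for Cyp27b1, Cyp24a1, Cyp2a5 and Cyp2b10, 4 genes in all. It was the lowest for the other 5. Number 1 was often the extreme in general: it was the highest for 42.0% and the lowest for 43.0% of all tested genes. The shares of the 38 members were 34.2% and 44.7%. Cyp2j11 lay at 52.1, 134 and 208 CPM in IRI and at 46.4, 134 and 144 CPM in congested libraries 1, 2 and 3. Cyp2b10, a gene that the nuclear receptors CAR and PXR control in liver, lay at 6.28, 1.45 and 5.03 CPM in IRI and 6.91, 1.03 and 4.08 CPM in congested libraries. Like Cyp2a5 it was lowest in library 2 of each group, on 17 and 14 counts. The count of 9 was 3 (Cyp2b10, Cyp24a1 and Cyp26b1) without number 1 in both groups, where 139 of all genes were called, and 25 without number 3, where 4915 of all genes were. Without IRI library 3 alone it was 25, beside 5151 of all genes, and without congested library 3 alone 26, beside 7720. With all libraries 1143 of all genes were called.

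**Figure D3:**
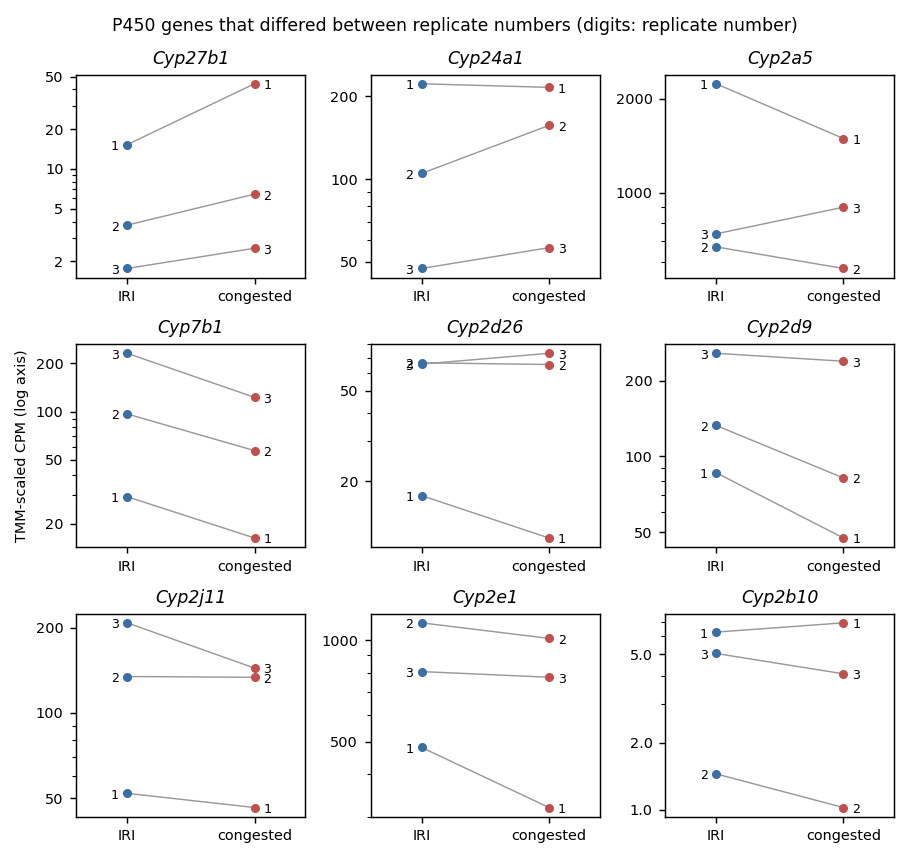
TMM-scaled CPM (log axes) of the 9 P450 genes that differed between replicate numbers, with IRI libraries in blue, congested libraries in red, digits for the replicate number and lines joining equal numbers. The lines are stacked by number in most panels: Cyp27b1 runs from 1.77 to 44.1 and Cyp7b1 from 16.2 to 231.

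Genes of tubular injury followed the same numbers. Spp1, an injury-induced secreted protein, lay at 40232, 13372 and 4794 CPM in IRI and at 59298, 15338 and 8797 CPM in congested libraries 1, 2 and 3. Havcr1, the gene of kidney injury molecule, lay at 2477, 1011 and 889.8 CPM in IRI and 2122, 967 and 1063 CPM in congested libraries. Vcam1 lay at 25.2, 13.7 and 7.77 CPM in IRI and 33.6, 20.9 and 8.24 CPM in congested libraries. Its log2 fold change was 0.42 ± 0.57 (SE). Of 9 injury genes 8 differed between the numbers at an edgeR adjusted p under 0.05, against 7.94% of all genes. Between the groups 0 differed, with 3 of 9 log2 fold changes above 0 and a median of -0.08. The direction of this list depended on the fit: 6 of 9 lay above 0 with total counts, 5 with the replicate block (median 0.17), 8 with length and GC removed, 9 without IRI library 1 (median 0.95) and 0 without congested library 1 (median -0.64). Of 14 proximal tubule markers 6 differed between the numbers, and 7 of 9 S3 markers did, against 7.94% of all genes. Calls over all genes fell without number 1 in both groups, and these list counts are not given for that fit. The part of the injury and tubule genes in the P450 values was not tested.

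**Figure D4:**
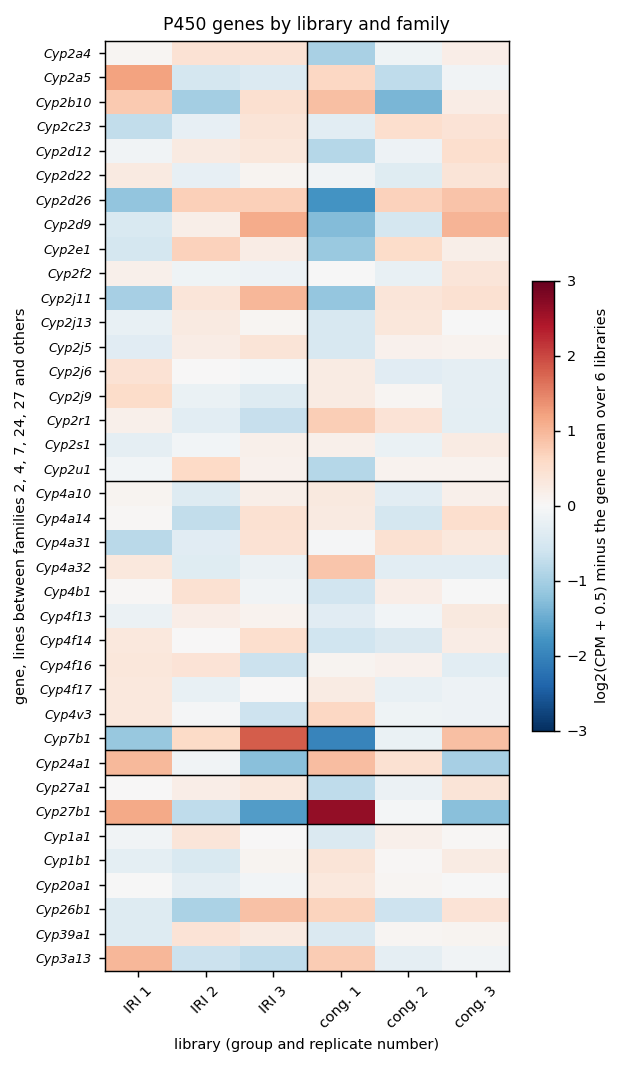
Level of each tested P450 gene in each library, as log2(CPM + 0.5) minus the mean of that gene over the 6 libraries, ordered by family (lines) and by group and replicate number. Red is above and blue below the mean of the gene. Library 1 of both groups shares its colour in the genes that varied most, such as Cyp27b1 (15.3 and 44.1 CPM in number 1) and Cyp2d26 (17.2 and 11.2 CPM in number 1).

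Partners and regulators of the enzymes. Of 9 electron donors with a row, 8 were tested and 0 were called, and all 8 log2 fold changes lay below 0, with a median of -0.23. Over all genes 49.7% lay above 0. With total counts 1 of the 8 lay above 0. Without congested library 1 it was 2 (median -0.17), and without IRI library 2 or IRI library 3 it was 1. With any other single library left out it was 0. Fdx1, the ferredoxin that serves mitochondrial P450 enzymes, lay at 110.1, 94.6 and 88.1 CPM in IRI and at 77.4, 69.1 and 77.7 CPM in congested libraries, which did not overlap. Such separation downwards held for 3.10% of all genes, and Fdx1 was named for the smallest p of its list. Its log2 fold change was -0.38 ± 0.19 (SE; edgeR adjusted p = 0.935). Pgrmc2, a haem-binding partner of P450 enzymes, had a log2 fold change of -0.27. Por, the reductase of microsomal P450 enzymes, lay at 267, 362 and 392 CPM in IRI and 226, 283 and 370.1 CPM in congested libraries, lower in every number.

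Of 24 transcriptional regulators of P450 genes 21 were tested and 0 were called, with 16 log2 fold changes above 0 and a median of 0.16. Ppara, the receptor that drives the Cyp4a genes, lay at 21.6, 19.1 and 55.1 CPM in IRI and at 57.9, 49.6 and 51.2 CPM in congested libraries 1, 2 and 3. IRI libraries 1 and 2 were low and the other 4 alike, so the groups overlapped. The log2 fold change was 0.73 ± 0.40 (SE; unadjusted p = 0.112, edgeR adjusted p = 0.935). Ppard, a related receptor, had a log2 fold change of 0.31. Nr1i3, which encodes CAR, had at most 3 counts in a library.

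P450 genes whose symbols fall outside the rule were Cyp51, Cyp4a12a, Cyp4a12b, Ptgis and Tbxas1. All 5 were tested, 0 were called, and 3 lay above 0 (median 0.06, or -0.20 without IRI library 1). Cyp51, the lanosterol demethylase of cholesterol synthesis, lay at 75.7, 165 and 222 CPM in IRI and at 48.5, 119 and 129 CPM in congested libraries, lower in every number. Its log2 fold change was -0.64, and in the blocked fit -0.63 (unadjusted p = 0.00820). Cyp4a12b, a fatty acid omega-hydroxylase, lay at 81.9, 45.8 and 42.8 CPM in IRI and at 85.1, 93.7 and 65.0 CPM in congested libraries, with a log2 fold change of 0.51.

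Enzymes that act beside P450 enzymes were not called either. Of 19 eicosanoid and epoxide genes 15 were tested, 5 above 0, with a median of -0.12, or 8 above 0 with total counts. Ephx2, the hydrolase that removes the epoxides made by Cyp2j and Cyp2c enzymes, lay at 1067, 857 and 702 CPM in IRI and 616, 647 and 774 CPM in congested libraries, with a log2 fold change of -0.37. Hpgds, a prostaglandin D synthase, lay at 2.54, 0.683 and 1.15 CPM in IRI and 15.1, 2.12 and 1.26 CPM in congested libraries. Of 17 retinoid genes 13 were tested, 7 above 0, with a median of 0.07; those with the smallest p were Stra6 and Rarb, at log2 fold changes of 0.67 and 0.81 on low counts. Of 18 steroid-modifying enzymes with a row, 17 were tested, 5 above 0, with a median of -0.20. Between the replicate numbers 8 of the 17 differed at an edgeR adjusted p under 0.05, against 7.94% of all genes. Hsd17b10 and Hsd17b4, both of which also act in fatty acid breakdown, had log2 fold changes of -0.57 and -0.28.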

How the data were processed

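The authors deposited raw read counts for each gene in 6 polyadenylated RNA libraries. STAR 2.7.10a, featureCounts, Subread and GRCm38 stand, without roles, in the list taken per the submitters' processing notes. The annotation, strand setting and rule for multiply mapped reads are unstated in those sources, and reads of overlapping or antisense genes may be mixed. All 14398 genes with 10 or more counts in 3 libraries were fitted with edgeR 4.0.16 (R 4.3.3; TMM factors, robust quasi-likelihood F test) and adjusted by Benjamini-Hochberg; log2 CPM used a prior count of 2. Differences between replicate numbers were tested with the group in the model. Alternatives were other scalings and filters, DESeq2 1.42.0, limma-voom 3.58.1, a fit without robust estimation, the replicate block, a length and GC trend removed (mgcv 1.9.3) and libraries left out.

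Lengths came from GENCODE for GRCm38, which matched 95.6% of tested genes and 68 of 69 members. Promoters came from RefSeq (27 of 38 tested members matched). Chi-square per degree of freedom between replicates of a group was 18.7 to 192, so each was counted as 1 sample. Deviations from group means correlated at 0.719, 0.342 and 0.427 between libraries numbered 1, 2 and 3. All exceed a threshold of 0.1, but the labels do not say what an equal number shares. The main fit therefore left the number out, and the block was an alternative. The crossed values also exceed 0.1, at 0.395 for IRI 2 with congested 3 and 0.242 for IRI 3 with congested 2. The threshold therefore cannot tell whether numbers 2 and 3 pair the libraries.

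Members and lists were chosen with earlier results of these data known. Named genes were, by rule, the 3 tested members with the highest length-scaled level in each family group, the 5 with the smallest unadjusted p in each direction and between numbers, any whose groups did not overlap, the vitamin D enzymes and the 2 genes of each companion list with the smallest p. Any other gene was picked with its values in view. Simulated counts with 97 genes changed 2-fold and 98 changed 4-fold among 14421 that passed the filter were used to check the fit. With the block, 48.5% and 96% of such genes were called among 14460. Neither simulation gave the libraries an effect of the replicate number.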

Additional observations from a re-analysis of the deposited data

How the results depend on the processing

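No P450 gene was called between congested and IRI kidney under any alternative but 1. With the replicate block and replicate 3 left out of both groups, 12 of 37 members were called, in a fit with 1 residual degree of freedom that also called 5300 of all genes. The replicate block with all libraries changed no call. The median log2 fold change of the members ran from -0.10 to 0.041 with 1 library left out, the latter without IRI replicate 1. The 9 members that differed between replicate numbers became 14 without a filter, 14 with a length and GC trend removed, 9 to 26 with 1 library left out, and, in a check chosen after seeing the data, 3, 7 and 25 without replicates 1, 2 and 3 in both groups. Cyp24a1 was called in all 20 of these fits. The number of all genes called also changed widely between fits, so the member counts are not a result about P450 genes alone. That number is given above for some fits only, and not without a filter, with the trend removed or without replicate 2. Of 456 log2 fold changes of named members under alternatives, 22 changed sign. Cyp2d26, at 0.01 with all libraries and no block, was -0.15 with limma-voom, -0.14 with the replicate block and -0.16 with DESeq2 and the block, and -0.21 and -0.27 with the replicate block and replicates 2 and 3 left out of both groups. Cyp2a5 was 0.030 with the block and replicate 1 left out. With 1 library left out the log2 fold changes ran from -0.24 to 0.92 for Cyp24a1, -0.64 to 2.67 for Cyp27b1, -0.74 to 0.50 for Cyp2a5, -0.40 to 0.48 for Cyp2d26, -1.29 to 0.17 for Cyp2d9, -0.55 to 0.15 for Cyp2e1, -0.063 to 0.25 for Cyp4a10, -0.14 to 0.43 for Cyp4a14 and -1.70 to 0.053 for Cyp7b1. The cause of these shifts was not tested. A library left out without the block leaves its namesake unmatched. Members below about 20 counts per library, such as Cyp4f14 and Cyp1a1, are limited by depth.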
